A study of Mus musculus with 12 samples.

Results

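Laminins, integrins and the proteins that link the basal lamina were followed as 33 genes given by name, 10 for laminin chains, 4 for linkers, 12 for integrin alpha chains and 7 for integrin beta chains. All 33 were found by their mouse Ensembl identifiers among the 25700 genes of the count table, and 32 passed the filter on low counts together with 18597 genes in all. The remaining gene, Itgb7, had between 0.0776 and 1.47 CPM (counts scaled to a common library size) in the 12 libraries and was not tested.

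RNA was measured by Smart-Seq2, which amplifies cDNA of polyadenylated transcripts, in eYFP-marked Schwann cells of P5 mice (postnatal day 5) that had been sorted after dissociation of the sciatic nerve. All mice carried P0Cre, ReYFP and βAct-DsRed on the C57bl/6J background. P0Cre turns on eYFP in the Schwann cell lineage, and βAct-DsRed marks every cell. The compared gates share the same alleles. The allSC gate took all eYFP-positive cells, the nmSC gate those of low side scatter (granularity) and the mSC gate those of high side scatter. Each gate had 4 libraries, each from 1 mouse, so that p-values measure the spread between these mice. Mice of both sexes were used in each gate, and sex is part of that spread. The gates share the numbers 1 to 4, read here as the mouse, and the main model does not use these numbers. The gates enrich for not-myelinating (nmSC) and myelinating (mSC) Schwann cells and do not purify them, and allSC holds the cells of both other gates. In such bulk samples fewer cells of a type and less RNA per cell cannot be told apart.

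Laminins are trimers of 1 alpha, 1 beta and 1 gamma chain that Schwann cells secrete and assemble around themselves, and nidogens, perlecan and agrin tie the laminin sheet to collagen IV and to the cell surface. Integrins are dimers of an alpha and a beta chain that bind laminins, collagens or other matrix proteins outside the cell and connect them to actin inside. In the peripheral nerve, laminins with the alpha2 or alpha4 chain and integrins that hold the beta1 chain are known for their role in radial sorting, in which Schwann cells separate axons before they myelinate them.

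Each library had between 8180927 and 16918122 counts on genes. Values between libraries are given as CPM scaled by the TMM method, and levels between genes as RPKM, the same values per kilobase of exons. The 50 genes with the most counts took 26.9% to 31.6% of an mSC library and 17.9% to 18.9% of an nmSC library, with TMM factors of 0.744 to 0.871 and 1.16 to 1.27. Over all tested genes the median difference, mSC minus nmSC on the log2 scale, came to -0.16 under TMM, -0.73 under library size alone, -0.53 without the 50 top genes and -0.098 with the size factors of DESeq2, so each scaling sets its own zero. The mSC library of mouse 4 stood apart. Its counts differed from the other mSC libraries by a chi-square per degree of freedom between 50.6 and 95.7, against 6.01 to 22.1 among the other 3, and results that rest on it are given with and without it. Sox10, which marks the Schwann cell lineage, had mean levels of 267 CPM in mSC, 267 in allSC and 266 in nmSC.

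The results turn on a few receptor chains and 1 linker, and the promoters of 4 that passed the test between mSC and nmSC (Itga1, Itga4, Itgb5, Agrn) are shown beside that of Itgb1, which did not pass. Itgb3, Nid2 and Lama4 have no entry in the promoter table. The sequences are the 250 bases before the start of transcription in RefSeq (GRCm38.p6), read 5′ to 3′ on the strand of the gene. They lie at chr13:115101965-115102214 on the minus strand for Itga1, chr2:79255176-79255425 on the plus strand for Itga4, chr16:33829415-33829664 on the plus strand for Itgb5, chr4:156197489-156197738 on the minus strand for Agrn and chr8:128685404-128685653 on the plus strand for Itgb1. Capitals mark matches to the motifs searched on both strands.
Itga1: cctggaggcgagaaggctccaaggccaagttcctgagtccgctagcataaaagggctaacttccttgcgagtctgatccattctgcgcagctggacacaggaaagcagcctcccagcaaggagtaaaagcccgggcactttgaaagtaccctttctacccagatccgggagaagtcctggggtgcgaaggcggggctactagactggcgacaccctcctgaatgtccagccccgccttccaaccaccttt
Itga4: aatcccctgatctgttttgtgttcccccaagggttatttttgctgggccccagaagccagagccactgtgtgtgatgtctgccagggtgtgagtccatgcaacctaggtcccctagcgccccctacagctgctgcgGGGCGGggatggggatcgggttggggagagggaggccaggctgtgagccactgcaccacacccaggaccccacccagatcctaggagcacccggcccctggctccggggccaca
Itgb5: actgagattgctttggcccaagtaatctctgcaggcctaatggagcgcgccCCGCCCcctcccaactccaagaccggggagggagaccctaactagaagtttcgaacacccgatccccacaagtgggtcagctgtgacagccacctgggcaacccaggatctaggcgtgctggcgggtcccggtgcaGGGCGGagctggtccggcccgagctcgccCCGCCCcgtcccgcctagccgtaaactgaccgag
Agrn: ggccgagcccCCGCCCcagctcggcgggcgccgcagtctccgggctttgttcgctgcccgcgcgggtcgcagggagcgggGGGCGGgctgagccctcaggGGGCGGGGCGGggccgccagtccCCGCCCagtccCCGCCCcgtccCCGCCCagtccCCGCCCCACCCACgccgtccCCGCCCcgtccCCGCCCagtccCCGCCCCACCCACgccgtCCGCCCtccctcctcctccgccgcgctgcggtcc
Itgb1: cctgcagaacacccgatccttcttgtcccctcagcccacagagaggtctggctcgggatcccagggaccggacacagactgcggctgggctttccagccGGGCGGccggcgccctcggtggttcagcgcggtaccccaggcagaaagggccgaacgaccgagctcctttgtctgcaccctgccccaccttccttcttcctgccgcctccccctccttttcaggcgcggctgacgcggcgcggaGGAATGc
The searched motifs were a GC box (GGGCGG, in 32.7% of 32841 RefSeq promoters of this length), an EGR core (GTGGGNG, 28.1%), a TEAD motif (GGAATG, 12.6%), a TATA box (TATAAA, 12.4%), a SOX core (AACAAT, 9.43%) and an AP-1 motif (TGANTCA, 6.75%). The Itga1 promoter held none of these letters, that of Itga4 held 1 GC box and that of Itgb5 held 3. The Agrn promoter held 12 GC boxes and 2 EGR cores, each directly after a GC box, while the only overlap was 1 base shared by neighbouring GC boxes, and 83.6% of its bases were G or C, against a median of 52.4% over all promoters. A second start of Agrn, not shown, has its promoter at chr4:156186260-156186509, with 2 GC boxes, 0 EGR cores and 60.8% G or C. The Itgb1 promoter held 1 GC box and 1 TEAD motif that begins 7 bases before the start. Of the 33 genes, 23 had an entry in the promoter table, some with more than 1 start, and the median number of CpG pairs was 11 in their 27 entries and 6 over all promoters. A match is a description of letters only.

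Itgb1, the beta chain shared by most laminin and collagen receptors, and Lamb1, the laminin beta1 chain, had the highest mean levels per length in every gate. They differed from each other by less than the spread between libraries, as did Nid2 from both in nmSC, where Lamb1 was at 227 RPKM, Itgb1 at 210 and Nid2 at 197. In allSC, Itgb1 was at 243 RPKM, Lamb1 at 234, Nid1 at 181, Nid2 at 163, Itga6 at 123, Lamc1 at 83.7, Lama4 at 67.1, Hspg2 at 62.1, Itgb8 at 59.5 and Lama2 at 55.1. These 10 genes include the chains of the main Schwann cell laminins (alpha2 or alpha4 with beta1 and gamma1), 3 linkers (Nid1, Nid2 and Hspg2), and both chains of integrin alpha6beta1, a laminin receptor. A middle group of Itgb3, Itgb4, Lamb2, Itga7, Agrn, Itgav, Itga2, Itgb5, Itga4 and Itga1 lay between 1.72 and 25.1 RPKM in allSC.

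The lowest members could not be separated from the lowest signal of these libraries. The 1452 olfactory and vomeronasal receptor genes, which a Schwann cell should not use, had 0.207 RPKM on average in mSC, 0.292 in allSC and 0.334 in nmSC, and their 95th percentiles were 0.513, 0.663 and 0.739. Lama3, Lamb3, Lamc3, Itga3, Itga5, Itga8, Itga9, Itga10, Itga11, Itgb6 and Itgb7 lay at or under that percentile in every gate, 11 of the 33 genes. Lama1, at 0.512 RPKM, and Itga1, at 0.368 RPKM, did so in mSC alone.

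**Figure D1:**
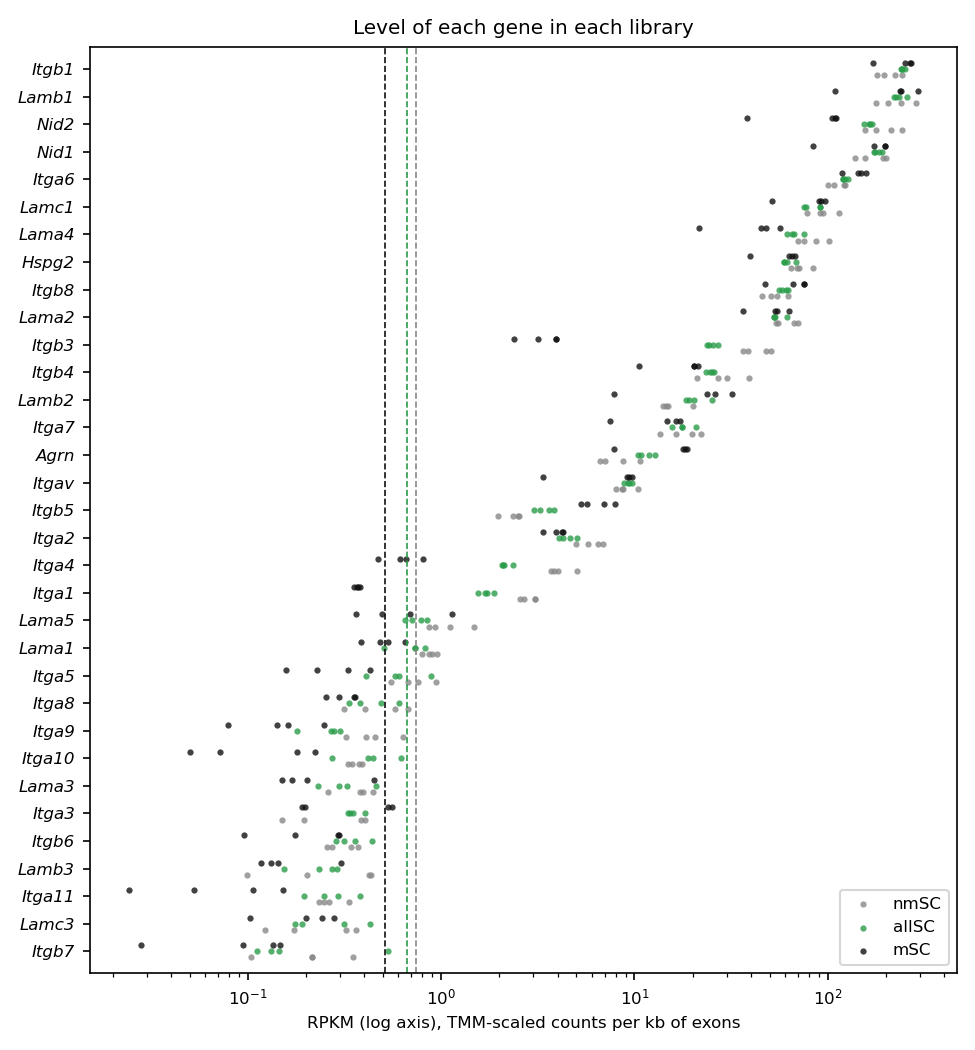
Level of each of the 33 genes in each of the 12 libraries (RPKM on a log axis, 1 point per library, grey for nmSC, green for allSC and black for mSC). Dashed lines are the 95th percentiles of the receptor genes in each gate (0.513 in mSC, 0.663 in allSC, 0.739 in nmSC), under which the lowest members lie, while Itgb1 and Lamb1 are at the top.

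The comparison of the mSC with the nmSC gate asked which chains differed between the cells that the side scatter separates. Itgb3, Itga1 and Itga4 were between 6.44 and 12.9 times lower in mSC, Nid2 and Lama4 were about 2.18 and 1.95 times lower, Itgb5 was 2.76 times higher and Agrn 1.89 times higher. The chains Lama2, Lamb1, Lamc1 and Itgb1 did not pass the test under TMM, while with library size alone all 4 were lower in mSC, by log2 fold changes of -0.78, -0.58, -0.73 and -0.35 (adjusted p of edgeR 0.000529, 0.0332, 0.00237 and 0.0411) that lay -0.057 to 0.37 from the median of all genes under that scaling. With an adjusted p under 0.05 (quasi-likelihood test of edgeR), 16 of the 32 tested members differed, 50% of them, where 40.5% of all tested genes did. Of these, 3 members were higher in mSC (Agrn, Itga6, Itgb5), where 20.4% of all tested genes were, and 13 were higher in nmSC, where 20.1% were. The 4 libraries of each gate did not overlap for 12 of the 32, 37.5%, against 34.2% of all tested genes. The median log2 fold change of the members was -0.55 against -0.16 of all tested genes, and the median size, without sign, was 0.62 against 0.57. Leaving out the 13 members at the level of receptor genes in any gate, a choice made after their values were seen, 3 were higher in mSC and 7 in nmSC of 20. With library size alone 1 was higher in mSC and 25 in nmSC, so the split between directions moves with the scaling (18.8% of the called members higher in mSC with TMM, 3.85% with library size, 8.7% without the 50 top genes). Over all called genes that share was 50.3%, 12.2% and 21.2%, so it moved with the scaling too. Without mSC replicate 4, 6 were higher in mSC and 12 in nmSC, of 3930 and 3788 genes called in these directions.

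**Figure D2:**
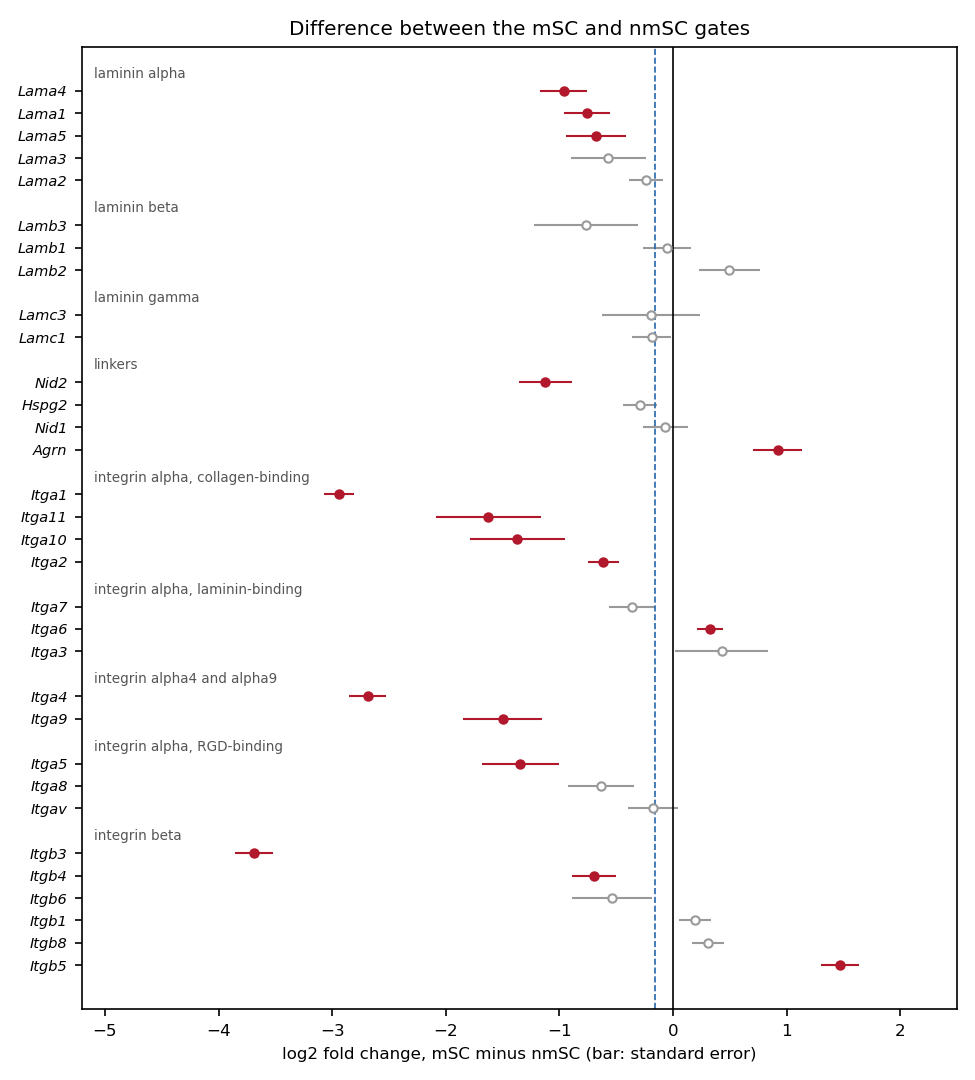
Log2 fold change, mSC minus nmSC, of the 32 tested members by role, with the standard error as a bar. Filled red points have an adjusted p under 0.05, open grey points do not, and the dashed line is the median of all tested genes (-0.16). Itgb3, Itga1 and Itga4 lie far to the left and Itgb5 to the right.

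Among the laminin alpha chains, 3 of 5 were higher in nmSC, where 20.1% of all tested genes were. None was higher in mSC, where 20.4% were. Lama4, the laminin alpha4 chain, had 848, 908, 1219 and 1042 CPM in the nmSC libraries of mice 1 to 4, 911, 805, 784 and 739 CPM in allSC, and 680, 576, 543 and 261 CPM in mSC. Every nmSC library lay above every mSC library, and the log2 fold change was -0.96 ± 0.206 (SE, n = 4 per gate, adjusted p of edgeR 9.67e-04). Without mSC replicate 4, its lowest library, the value was -0.74. Lama2, the laminin alpha2 chain and the one lost in merosin-deficient muscular dystrophy, averaged 850 ± 183 CPM in mSC and 1003 ± 135 CPM in nmSC (SD, n = 4). Its libraries overlapped, and the log2 fold change of -0.24 ± 0.149 (SE) did not pass the test (adjusted p of edgeR 0.206). Lama1 was low, with a mean of 4.96 CPM in mSC and 8.48 CPM in nmSC (log2 fold change -0.76, adjusted p of edgeR 0.00581). In mSC it lay at the level of receptor genes, which themselves averaged 0.207 RPKM in mSC and 0.334 RPKM in nmSC. Lama5, the laminin alpha5 chain, had 13.02, 5.64, 7.83 and 4.11 CPM in mSC, 8.94, 9.56, 7.39 and 8.04 CPM in allSC and 12.7, 9.85, 16.8 and 10.6 CPM in nmSC. Its libraries overlapped and its adjusted p of edgeR was 0.0494, which became 0.114 without mSC replicate 4, 0.149 without mSC replicate 2 and 0.172 without nmSC replicate 3. Its call was also lost without any allSC library, mSC replicate 3 or nmSC replicates 1 or 4, in the model of only these gates (0.0988), with no filter (0.0587), with the size factors of DESeq2 (0.0699) and with the Wald test of DESeq2 (adjusted p 0.0576). Lama3 had a log2 fold change of -0.57 with an SE of 0.332 and did not pass.

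The beta and gamma chains gave no call in this comparison. Lamb1 was at 2176 ± 767 CPM in mSC and 2252 ± 464 CPM in nmSC (SD, n = 4), and its log2 fold change of -0.05 ± 0.212 (SE) turns to 0.18 without mSC replicate 4. Lamc1, the gamma1 chain of nearly all laminins of the nerve, differed by -0.19 ± 0.170 (SE) on the log2 scale. Lamb2, the beta2 chain known from neuromuscular junctions and kidney, had 193, 145, 158 and 47.7 CPM in the mSC libraries, and 85.3, 90.1, 123 and 88.6 CPM in nmSC. Its 3 mSC libraries of mice 1 to 3 lay above every nmSC library, and that of mouse 4 lay below them all. Its log2 fold change was 0.50 ± 0.268 (SE, adjusted p of edgeR 0.144) with all libraries and 0.78 (adjusted p of edgeR 0.000131) without mSC replicate 4. Lamb3 (-0.76 ± 0.460) and Lamc3 (-0.19 ± 0.436), given as log2 fold changes with their SE, were at the level of receptor genes.

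Of the linkers, Nid2 and Agrn went in opposite directions and Nid1 and Hspg2 did not pass. Nid2, one of the nidogens that bridge laminin and collagen IV, had 804, 914, 1259 and 1093 CPM in nmSC, 844, 800, 854 and 876 CPM in allSC and 560, 542, 569 and 196 CPM in mSC. No mSC library reached the lowest of the nmSC libraries, and the log2 fold change was -1.12 ± 0.234 (SE, adjusted p of edgeR 7.80e-04), or -0.86 without mSC replicate 4. Exons of Nid2 share 437 bases with Rtraf on the other strand, and whether the counting used strand is not stated. Nid1, the other nidogen, averaged 1136 ± 377 CPM in mSC and 1191 ± 205 CPM in nmSC (SD, n = 4), a log2 fold change of -0.07 ± 0.199 (SE). Agrn, the heparan sulfate proteoglycan with 12 GC boxes in the 1 promoter shown above, had 173, 170, 166 and 73.0 CPM in mSC, 110, 96.6, 99.8 and 119 CPM in allSC and 61.9, 65.5, 99.0 and 81.3 CPM in nmSC. The mSC libraries of mice 1 to 3 lay above all nmSC libraries and that of mouse 4 lay among them. The log2 fold change was 0.92 ± 0.214 (SE, adjusted p of edgeR 0.00202), and 1.15 without mSC replicate 4. With library size alone it was 0.39 and did not pass (adjusted p of edgeR 0.136), while it lay 1.08 above the median of all genes under TMM and 1.11 above it under library size. Hspg2, which encodes perlecan, differed by -0.29 ± 0.149 on the log2 scale (SE, adjusted p of edgeR 0.126).

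**Figure D3:**
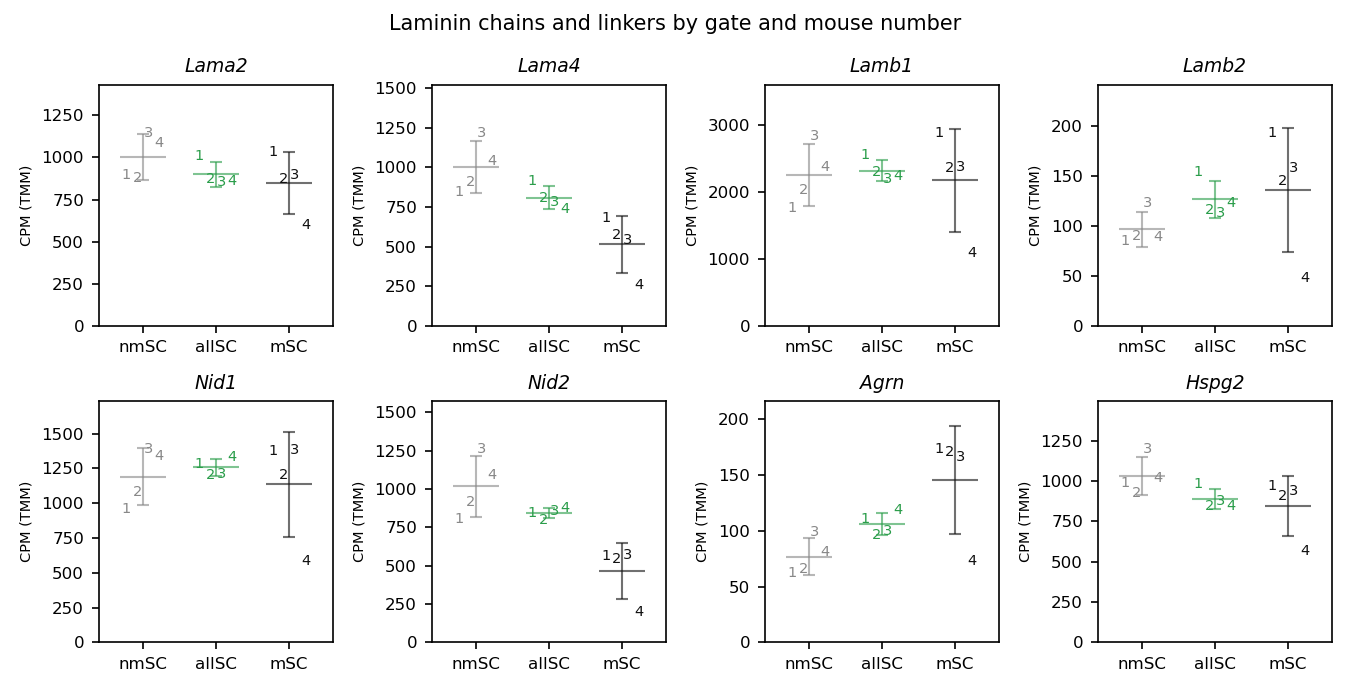
CPM of 8 laminin chains and linkers in each gate, with digits 1 to 4 for the mouse of each library and bars for the mean and SD (n = 4). Lama4 and Nid2 step down from nmSC to mSC and Agrn steps up, and mSC library 4 is the lowest point of 7 panels, and for Agrn nmSC libraries lie lower.

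The collagen-binding alpha chains were all higher in nmSC, 4 of 4, where 20.1% of all tested genes were. Of them, 2 were at the level of receptor genes in every gate, and Itga1 was in mSC alone. Itga1, whose promoter above held no searched motif, pairs with Itgb1 in a receptor for collagens and laminin. It had 56.5, 49.8, 47.6 and 56.8 CPM in nmSC, 32.3, 35.0, 28.9 and 31.5 CPM in allSC and 7.05, 6.60, 6.90 and 6.86 CPM in mSC. The gates were fully apart and ordered, with a log2 fold change of -2.94 ± 0.136 from nmSC to mSC (SE, adjusted p of edgeR 3.80e-12). It shares 685 exon bases with Gm49395 on the same strand. Itga2, the alpha2 chain of another collagen receptor, had 35.4, 41.1, 46.4 and 49.1 CPM in nmSC, 33.2, 35.8, 30.4 and 29.0 CPM in allSC and 30.1, 30.3, 24.0 and 28.2 CPM in mSC. Every mSC library lay below every nmSC library (log2 fold change -0.61 ± 0.139 SE, adjusted p of edgeR 0.00164). Itga10 and Itga11 had log2 fold changes of -1.37 and -1.63, from mean levels of 0.680 and 0.430 CPM in mSC. Of the 5186 exon bases of Itga10, 1739 are shared with Gm42957 on the same strand.

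Of the laminin-binding alpha chains, Itga6 led by level. Itga6, the alpha chain of the alpha6beta1 and alpha6beta4 laminin receptors, had 1417, 1334, 1288 and 1074 CPM in mSC, 1104, 1083, 1084 and 1154 CPM in allSC and 972, 907, 1090 and 1106 CPM in nmSC. The mSC library of mouse 4 lay within the range of nmSC, and the other 3 above it. The log2 fold change of 0.33 ± 0.116 (SE, adjusted p of edgeR 0.0317) turned to -0.23 with library size alone and -0.029 without the 50 top genes, and it lay 0.49 above the median of all genes under TMM and 0.50 above it under library size. The adjusted p of edgeR rose above the threshold in the model of only these gates (0.0875) and without any of 5 libraries (mSC replicates 1 to 3 and nmSC replicates 1 and 2), up to 0.102. Itga7, the alpha chain of a laminin receptor well known from muscle, had a log2 fold change of -0.36 ± 0.205 (SE) and Itga3 of 0.43 ± 0.408 (SE), and neither passed.

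The other alpha chains were higher in nmSC where they passed. Itga4, whose dimer with beta1 binds fibronectin and Vcam1, had 53.8, 56.4, 51.4 and 70.1 CPM in nmSC, 28.8, 29.2, 32.9 and 29.6 CPM in allSC and 9.16, 8.59, 11.3 and 6.61 CPM in mSC. The gates did not overlap, and the log2 fold change was -2.69 ± 0.164 (SE, adjusted p of edgeR 1.31e-10). Its exons share 1124 bases with Cerkl on the other strand. Itga5, the alpha chain of the main fibronectin receptor, and Itga9, a receptor chain for tenascin, were at the level of receptor genes and had log2 fold changes of -1.34 ± 0.337 and -1.50 ± 0.349 (SE). Itgav, the RGD-binding partner of Itgb3, Itgb5 and Itgb8, was at 84.6 ± 32.5 CPM in mSC and 95.8 ± 11.3 CPM in nmSC (SD, n = 4), with a log2 fold change of -0.18 ± 0.221 (SE) that turned to 0.079 without mSC replicate 4. Itga8 had a log2 fold change of -0.64 with an SE of 0.293 and did not pass.

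Among the beta chains, Itgb3 and Itgb4 were higher in nmSC and Itgb5 in mSC. Itgb3, which pairs with Itgav in a vitronectin receptor and is known best from platelets, had 215, 227, 301 and 282 CPM in nmSC, 139, 143, 160 and 151 CPM in allSC and 23.1, 23.3, 18.6 and 14.1 CPM in mSC. Its log2 fold change of -3.69 ± 0.170 (SE, adjusted p of edgeR 3.70e-12) was the largest in size of all members, with no overlap between any of the gates. Itgb5, which pairs with Itgav in another vitronectin receptor and has 3 GC boxes in the promoter above, had 24.6, 28.1, 20.2 and 18.7 CPM in mSC, 13.7, 11.5, 12.8 and 10.8 CPM in allSC and 8.35, 6.97, 8.88 and 8.96 CPM in nmSC. All mSC libraries exceeded all others, and its log2 fold change was 1.47 ± 0.167 (SE, adjusted p of edgeR 7.88e-07), or 0.91 with library size alone. It was called higher in mSC than in nmSC under every alternative run, as no other member was.

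Itgb4, the partner of Itga6 in the laminin receptor of mature myelinating Schwann cells, had 148, 189, 275 and 212 CPM in nmSC, 180, 165, 172 and 177 CPM in allSC and 149, 142, 143 and 74.3 CPM in mSC. The nmSC library of mouse 1 lay within the mSC range, and the log2 fold change was -0.69 ± 0.195 (SE, adjusted p of edgeR 0.00827), or -0.50 without mSC replicate 4. Itgb4 is also a marker of perineurial cells. Of 4 other perineurial markers, Cldn1 was lower in mSC, with 10.3 against 24.4 CPM in nmSC, Slc2a1 was higher, with 56.8 against 36.9 CPM, Msln was at 0.582 and 1.07 CPM and did not pass, and Lypd2 was listed at 0 in all mSC libraries. Their summed level was 62.1 to 74.0 CPM in mSC and 56.0 to 65.9 CPM in nmSC, and their part in the result for Itgb4 was not tested.

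Itgb1 and Itgb8 did not pass. Itgb1 was at 978 ± 186 CPM in mSC and 856 ± 112 CPM in nmSC (SD, n = 4), a log2 fold change of 0.19 ± 0.140 (SE), which was 0.33 (adjusted p of edgeR 0.0166) without mSC replicate 4 and -0.35 (adjusted p of edgeR 0.0411) with library size alone. Itgb8, which with Itgav binds and activates latent TGF-β, had a log2 fold change of 0.31 ± 0.142 (SE, adjusted p of edgeR 0.0924), and 0.44 (adjusted p of edgeR 0.00207) without mSC replicate 4. Itgb6 had a log2 fold change of -0.54 with an SE of 0.348.

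**Figure D4:**
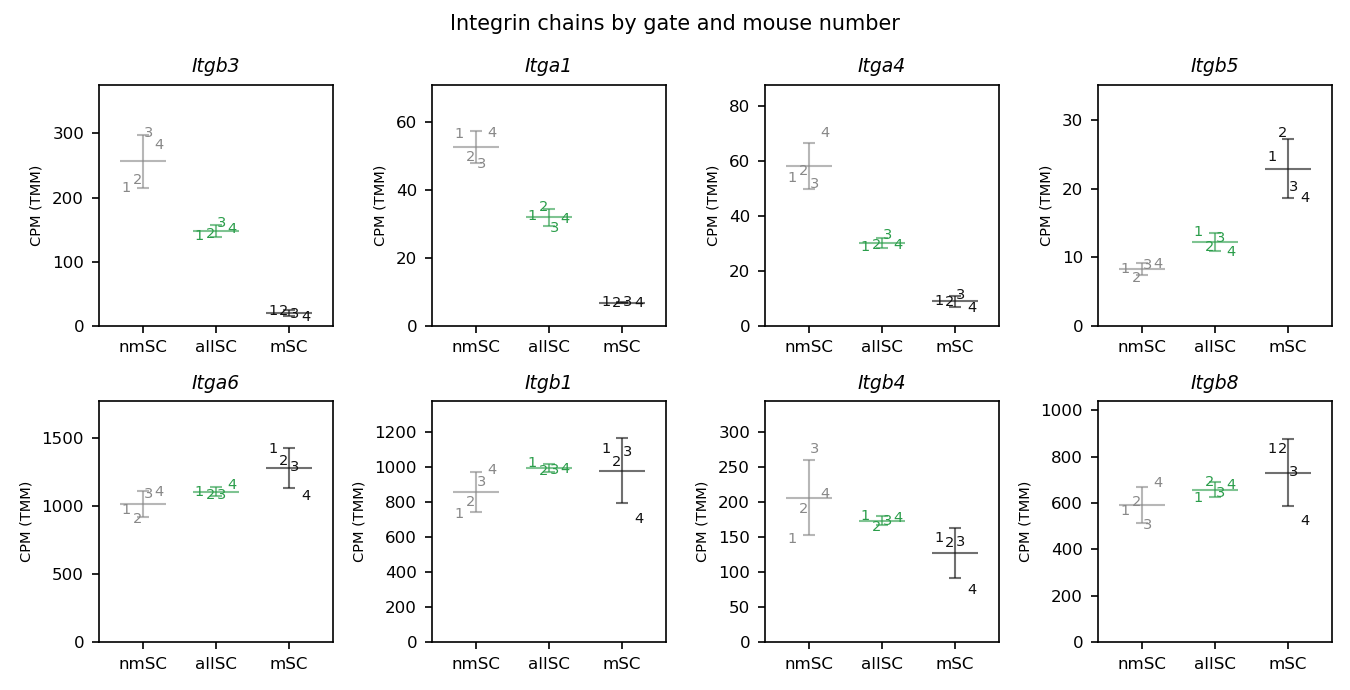
CPM of 8 integrin chains in each gate, with digits 1 to 4 for the mouse of each library and bars for the mean and SD (n = 4). Itgb3, Itga1 and Itga4 fall from nmSC over allSC to mSC with no overlap, Itgb5 rises, and Itga6, Itgb1, Itgb4 and Itgb8 overlap between mSC and nmSC.

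Ratios of chains within a library do not depend on how libraries are scaled, and are given as a description. The log2 ratio of Lama2 to Lama4 per length was 0.34 ± 0.283 in mSC, -0.28 ± 0.0454 in allSC and -0.43 ± 0.0826 in nmSC (SD, n = 4). All 4 mSC libraries were above 0 and all others below it, also without mSC replicate 4, which was the highest at 0.76. Put as shares of the 5 laminin alpha chains, Lama2 made up 55.1% ± 4.67 in mSC and 41.9% ± 1.36 in nmSC, and Lama4 43.5% ± 4.69 and 56.5% ± 1.41 (SD, n = 4). Lama1, Lama3 and Lama5 together made up the rest, each under 1% in every library.

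The nidogens also differed, with a log2 ratio of Nid1 to Nid2 of 0.90 ± 0.179 in mSC, 0.15 ± 0.0469 in allSC and -0.19 ± 0.0645 in nmSC (SD, n = 4). Nid1 made up 65.1% of the nidogen level in mSC, 52.6% in allSC and 46.7% in nmSC, and the libraries of the 3 gates did not overlap. Lamb1 made up 91.04% of the beta chains in mSC and 93.3% in nmSC, and the log2 ratio of Lamb2 to Lamb1 was -3.38 ± 0.288 in mSC and -3.83 ± 0.159 in nmSC (SD, n = 4), with mSC replicate 4 (-3.80) within the range of nmSC. Lamc1 made up 99.8% of the measured gamma chains in mSC and 99.7% in nmSC.

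Shares of integrin chains are of the 12 alpha or 7 beta chains followed here, so that Itga2b and other alpha chains are not in the total. Among these alpha chains Itga6 held 83.7% ± 2.69 in mSC and 72.7% ± 1.48 in nmSC, and among the beta chains Itgb1 held 71.8% ± 1.46 and 61.9% ± 0.535 (SD, n = 4). The share of Itgb3 was 1.00% in mSC, 7.05% in allSC and 12.8% in nmSC. Itgb8 held 19.8% in mSC and 15.9% in nmSC, Itgb4 5.35% and 8.60%, and Itgb5 1.96% and 0.693%. The log2 ratio of Itgb4 to Itgb1 was -3.76 ± 0.181 in mSC and -2.86 ± 0.252 in nmSC, and that of Itga7 to Itga6 was -3.41 ± 0.398 and -2.67 ± 0.228 (SD, n = 4). For both ratios the highest mSC library lay below the lowest nmSC library. With the mean length of transcripts in place of the union of exons the shares move, for instance Nid1 in nmSC to 53.0%, while a log2 ratio shifts by the same amount in every library.

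**Figure D5:**
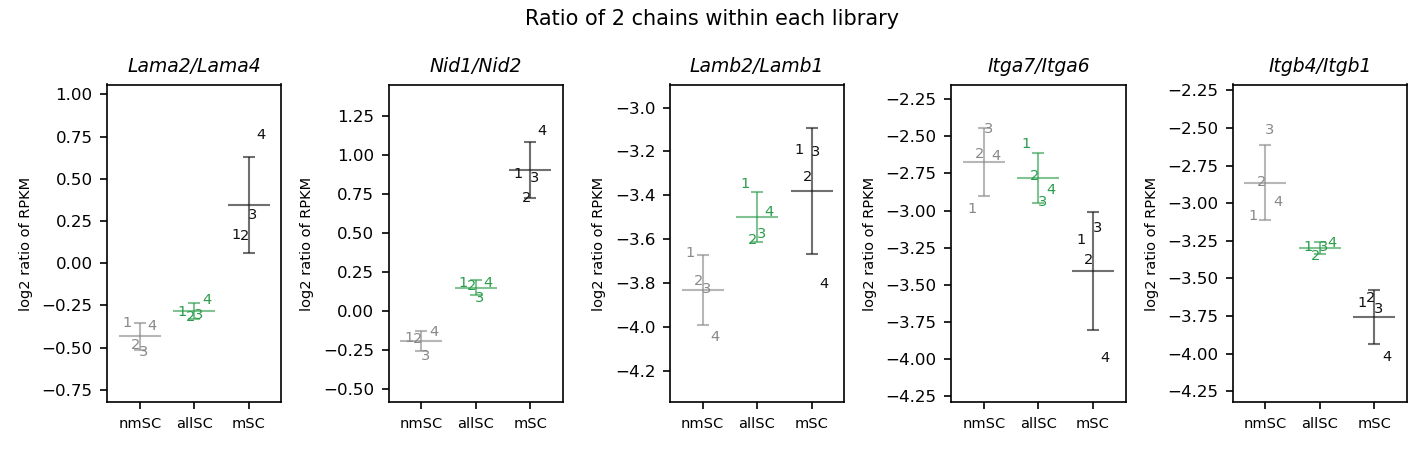
Log2 ratio of the RPKM of 2 chains within each library, by gate, with digits 1 to 4 for the mouse and bars for the mean and SD (n = 4). Lama2 to Lama4 and Nid1 to Nid2 are highest in mSC, Itga7 to Itga6 and Itgb4 to Itgb1 are lowest there, and allSC lies between the means of the other gates.

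The allSC gate, which takes cells of both kinds, was compared with each of the other gates, and these comparisons share libraries with the one above. Against mSC, 9 of 32 members passed (28.1%), where 17.6% of all tested genes did. Higher in allSC were 8 members, where 8.8% of all tested genes were, namely Itgb3 (log2 fold change 2.90), Itga1 (2.22), Itga4 (1.74), Itga10 (1.68), Itga11 (1.68), Itga5 (1.12), Nid2 (0.85) and Lama4 (0.65). Itgb5 was higher in mSC (-0.91), where 8.76% of all tested genes were. The libraries of allSC and mSC did not overlap for 9 of 32 members, against 22.5% of all tested genes. Without mSC replicate 4 the members higher in mSC were 5 (Itgb5, Agrn, Itga6, Lamb2 and Itgb8), of 1966 genes higher in mSC. Without allSC replicate 1 those higher in allSC were 5, of 1336 genes higher in allSC. There, Lama4 (adjusted p of edgeR 0.0935), Itga5 (0.0527) and Itga11 (0.0610) lost their calls. Lama4 also lost its call without allSC replicates 2, 3 or 4 or mSC replicates 2 or 3 and in the model of only these gates (adjusted p of edgeR 0.0533 to 0.0734), and Itga5 without allSC replicates 2 or 3 or mSC replicates 2 or 3 (0.0508 to 0.123). Of the 8, 4 stood above the level of receptor genes in every gate.

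Against nmSC, 4 of 32 members passed (12.5%), where 10.4% of all tested genes did. Itga4 (log2 fold change, allSC minus nmSC, -0.94 ± 0.151 SE), Itgb3 (-0.79 ± 0.151) and Itga1 (-0.72 ± 0.122) were lower in allSC, where 2.82% of all tested genes were. Itgb5 was higher in allSC (0.56 ± 0.168), where 7.55% of all tested genes were, with an adjusted p of edgeR of 0.0394 that became 0.0710 with the mouse as a block and was above the threshold when any allSC or nmSC library or mSC replicate 3 was left out. The libraries of allSC and nmSC did not overlap for 6 members, 18.8%, against 19.3% of all tested genes. Over the 3 gates, the mean of allSC lay between those of mSC and nmSC for 24 of the 32 tested members, 75%, and for 69.5% of all tested genes.

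Other genes of the pathway were counted from lists by role between mSC and nmSC, where 20.4% of all tested genes were higher in mSC and 20.1% in nmSC. Of 13 tested matrix ligands of integrins other than laminins, 10 were higher in nmSC and 1 in mSC. Fbln1 (fibulin 1, log2 fold change -4.64), Postn (periostin, -3.39) and Thbs2 (thrombospondin 2, -3.33) were lower in mSC, and Spp1 (osteopontin, 4.44) was higher. Of 15 genes for laminin receptors other than integrins and proteins of the dystroglycan complex, 7 were higher in mSC and 6 in nmSC. Drp2, a cytoplasmic partner of dystroglycan in myelinating Schwann cells, had a log2 fold change of 5.58, Utrn (utrophin, also cytoplasmic) of 1.91 and Bcam, a receptor for laminin alpha5, of 1.49, while Sdc4, a syndecan, had -1.24.

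Of 8 basement membrane collagens, 4 were higher in nmSC and 2 in mSC. Col18a1 (-1.75) and Col4a4 (-1.66) were lower in mSC, and Col4a2 (0.59) and Col15a1 (0.49) were higher. With library size alone these last values became 0.045 and -0.057, while the median of all tested genes moved from -0.16 to -0.73. Of 32 integrin activators and focal adhesion genes, 15 were higher in mSC and 6 in nmSC, with the tetraspanins Cd9 (log2 fold change 3.16) and Cd82 (1.72) and the adaptor Lims2 (1.82) higher and the tensin Tns2 (-1.78) lower in mSC. Of 8 further laminin and integrin genes, 1 was higher in mSC, Itga2b (2.57), the usual partner of Itgb3 in platelets, at 17.9 CPM in mSC and 3.01 CPM in nmSC, and 2 were higher in nmSC.

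Markers of other cells of the nerve were looked at beside these values. The fibroblast markers Pdgfra, Dcn, Lum and Cd34 had means between 1.45 and 12.8 CPM in every gate and none passed the test, while Col1a1 was lower in mSC, at 786 against 3420 CPM. In the mSC library of mouse 4, Dcn was at 26.7 CPM and Lum at 13.6 CPM, against 7.05 to 9.70 CPM and 0.610 to 3.56 CPM in the other mSC libraries. The summed level of the 5 fibroblast markers was 436 to 1033 CPM in mSC and 2922 to 4102 CPM in nmSC. Col1a1 made up most of that sum in both gates and set its direction. Of the other fibroblast markers, Cd34 went the same way, with a log2 fold change, mSC minus nmSC, of -0.94. Dcn (0.55), Lum (1.12) and Pdgfra (0.018) did not. The 5 endothelial markers summed to 20.6 to 30.7 CPM in mSC and 7.70 to 15.8 CPM in nmSC. Kdr, at 20.3 against 5.88 CPM (adjusted p of edgeR 9.58e-07), made up most of this in mSC. Pecam1 was at 1.25 CPM in mSC and 2.45 CPM in nmSC, Cdh5 at 0.427 and 1.03 CPM and Emcn at 1.31 and 2.64 CPM. Cldn5 was higher in mSC, at 0.907 against 0.357 CPM, and was not tested. The 5 mural markers summed to 25.9 to 39.1 CPM in mSC and 11.0 to 12.3 CPM in nmSC. Tagln, at 24.9 against 4.72 CPM, set the direction of that sum, while Myh11 was lower in mSC (2.13 against 4.47 CPM, adjusted p of edgeR 0.00507). Rgs5 was at 1.76 CPM in mSC and 0.791 CPM in nmSC, Acta2 at 0.830 and 1.09 CPM and Kcnj8 at 0.276 and 0.639 CPM. None of these passed. The 6 immune markers summed to 15.8 to 24.9 CPM in mSC and 22.3 to 33.6 CPM in nmSC. The part of these cells in the differences of the members was not tested.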

How the data were processed

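RNA of 12 libraries (3 gates, with 4 libraries each) was measured by Smart-Seq2. Adapters and weak read ends were removed by the authors, who then mapped the reads by STAR (2.6.1c, per the submitters' processing notes, with the mouse build GRCm38.p5) and counted them per gene with featureCounts, and deposited raw counts for 25700 genes without normalization. The text of the methods names a human build for this step, while the identifiers are of mouse. Options for strand, multi-mapping reads and overlaps are not given in the sources used here, and 12 of the members share exon bases with another gene. The selection of the listed genes is not stated.

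From the deposited counts, TMM factors, the low-count filter by gate and the quasi-likelihood test of edgeR 4.0.16 (R 4.3.3) were run in 1 model of all 12 libraries, with Benjamini-Hochberg adjustment over all tested genes and a threshold of 0.05. RPKM used the union of exons in GENCODE M21, which matched 25664 genes. At 3 counts the floor was 0.198 to 0.374 CPM, which covers counting error only. Alternatives were the DESeq2 1.42.0 Wald test and size factors, library size (with or without its 50 top genes), a looser and a stricter filter, fits restricted to a pair of gates, a block for the mouse, leaving out each library, and another gene length.

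The labels give each library a subject number from 1 to 4 that the 3 gates share, read here as the mouse, so the block is a paired fit. The correlation of deviations of same-numbered libraries lay between -0.0794 and 0.153. The highest correlation with a library of another number lay between 0.0226 and 0.143, so these values do not show the pairing. No libraries of a gate were duplicates (chi-square per degree of freedom 4.03 to 95.7). The methods do not assign the sexes to samples, and sex was not used.

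The members and lists were chosen with earlier results of these data known. All members are named. Those with an adjusted p under 0.05 and a mean of at least 10 CPM in a gate are given in every library in the comparison of mSC with nmSC, and up to 4 genes are named from each list, those with the largest log2 fold change that passed and had 10 CPM in a gate. Markers of skeletal muscle summed to at most 3.28 CPM. Some genes of the lists are not reported here.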

Additional observations from a re-analysis of the deposited data

Results flagged for a closer look

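Of 96 groups of 4 libraries (32 members in 3 gates), 9 had a library whose distance from the nearest other passed Dixon's critical value for 4 samples, and chance flags about 1 in 20 groups. In 7 of the 9 it was the mSC library of mouse 4. It was the lowest of its gate for Lamc1 (427 CPM), Nid2 (196 CPM), Agrn (73.0 CPM), Hspg2 (568 CPM), Itgav (36.0 CPM) and Itgb4 (74.3 CPM), and the highest for Lamb3 (1.99 CPM). The same library had the largest share of counts in the 50 top genes (31.6%), and the part of this in its low values was not tested.

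The other 2 were the allSC library of mouse 1 for Lama2, the highest of its gate at 1008 CPM, and the nmSC library of mouse 3 for Lamb2, the highest of its gate at 123 CPM.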

How the results depend on the processing

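With library size alone in place of TMM, 1 member was higher in mSC than in nmSC and 25 were higher in nmSC. These were among 11840 genes called in all (7540 with TMM). In that setting 13 members were higher in allSC than in mSC, of 3961 genes higher in allSC (1636 with TMM). For allSC against nmSC, 0 members were higher in allSC and 5 in nmSC, of 2938 genes called. Without the 50 top genes, 21 members were higher in nmSC than in mSC, of 7658 genes higher in nmSC and 2059 in mSC, and 0 higher in allSC than in nmSC, of 943 genes higher in allSC. With only the 2 gates compared, allSC against nmSC gave 2 members higher in allSC and 6 in nmSC, of 2899 genes called. With the mouse as a replicate block it gave 0 higher in allSC, as Itgb5 was lost, and the block changed no other call of a member called here. Beside these counts of 0 (edgeR), 0, 1 and 2 members had an unadjusted p under 0.05 with library size, without the 50 top genes and with the block, and the Wald test of DESeq2 called 1. Counting members above the level of receptor genes alone, 7 were higher in nmSC than in mSC and 4 higher in allSC than in mSC.

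Leaving out 1 library at a time gave 2 to 6 members higher in mSC than in nmSC, 12 to 14 higher in nmSC, 5 to 8 higher in allSC than in mSC, 1 to 5 higher in mSC than in allSC, and 0 to 2 higher in allSC and 3 to 4 higher in nmSC for allSC against nmSC. The number of all tested genes called moved as well. It was 6174 to 7991 for mSC against nmSC, 2205 to 4204 for allSC against mSC and 1345 to 2784 for allSC against nmSC.

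Directions between mSC and nmSC turned as follows, on the log2 scale. With library size alone they became -0.032 for Lamb2, -0.13 for Itga3, -0.23 for Itga6, -0.35 for Itgb1 and -0.25 for Itgb8, and without the 50 top genes -0.029 for Itga6, -0.16 for Itgb1 and -0.051 for Itgb8. Lamb1 became 0.012 with the Wald test and with the size factors of DESeq2. Leaving out 1 library at a time gave -0.21 to 0.18 for Lamb1 and -0.17 to 0.15 for Nid1 (both above 0 without mSC replicate 4 or nmSC replicate 3), -0.41 to 0.052 for Lamc3 (above 0 without mSC replicate 4 or nmSC replicate 1) and -0.28 to 0.079 for Itgav (above 0 without mSC replicate 4). Why these values moved was not tested beyond the change of the median of all genes given above. Members called in every setting, in 1 direction, include Itgb3, Itga1, Itga4, Itgb5, Lama4 and Nid2 between mSC and nmSC. Itga10 and Itga11 rest on 1 to 17 counts in an mSC library.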
